A study of Rattus norvegicus with 3 samples.

Results

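Casr, Calb1, S100g, Atp2b1, Atp2b2 and Slc8a1 encode proteins that sense, bind or export calcium, and their transcripts were followed in rat kidney inner medulla after lithium treatment. The genes were found as the probes annotated to 1 of these symbols alone, which gave 11 of the 5760 probes and 6 of the 4390 genes named on the arrays. All 6 genes were present, 5 of them had a value on all 3 arrays, and S100g had a value on 2. Tissue came from rats treated with lithium for 1 month and from control rats. No strain, age, sex or lithium dose is given in the sources used here. On each of 3 spotted 2-colour arrays, lithium RNA was in the red channel and control RNA in the green one, with 2 rats pooled per channel on arrays 1 and 2 and 1 rat per channel on array 3. The arrays held different rats, and as the dyes were never exchanged, dye and treatment cannot be told apart.

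Calcium leaves a renal epithelial cell through plasma membrane calcium pumps, which burn ATP, and through sodium-calcium exchangers, which use the sodium gradient. Calbindins bind calcium inside the cell and carry it between the membranes, chiefly in the distal nephron. The calcium-sensing receptor is a G protein-coupled receptor that reads extracellular calcium. It is abundant in the thick ascending limb, and in the rat inner medullary collecting duct it lies in the luminal membrane, where luminal calcium is known to blunt the water permeability that vasopressin raises. Long-term lithium is also known for raised blood calcium and parathyroid hormone in some patients.

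Values are log ratios with the median of each array subtracted, so that 0 stands for the middle probe of the array. The log base was not stated, and folds are therefore given for base 10 and base 2. Ratios below 0 were read as lower with lithium. The labels place lithium RNA in channel 1, but the deposited ratios state no direction. Aqp2, the vasopressin-regulated water channel that lithium is known to lower, read 0.11, 0.26 and 0.14, opposite to this reading. The direction is therefore an assumption throughout. The arrays carry ratios and no levels, so the labelled tissue could not be checked against the levels of its marker genes. In whole tissue, fewer cells of a type and less RNA per cell cannot be told apart.

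By mean ratio the genes ran from Casr, the lowest, through S100g, Calb1, Slc8a1 and Atp2b1 to Atp2b2, the highest. Casr had the lowest mean, yet its values overlapped those of S100g and Calb1, both of which read lower than Casr on array 2. Calb1, Slc8a1 and Atp2b1 overlapped one another as well. Atp2b2, at 0.08 or more on every array, lay above every value of Atp2b1 and of Slc8a1 when their probes were averaged. The genes were chosen by function with the ratios on these same 3 arrays already known, so their values are a description and carry no test. Of the 5 genes with a value on all arrays, 0 passed a limma adjusted p of 0.05, against 0.445% of all 3819 features (0.236% higher and 0.209% lower), and 2 (Casr and Atp2b2) had an unadjusted p under that threshold, against 17.2%. A ratio of 1 sign on all 3 arrays was held by 2 of the 5, against 38.7% of all features. Casr was below 0 on every array, as 14.6% of features were, and Atp2b2 above 0, as 24.1% were.

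**Figure D1:**
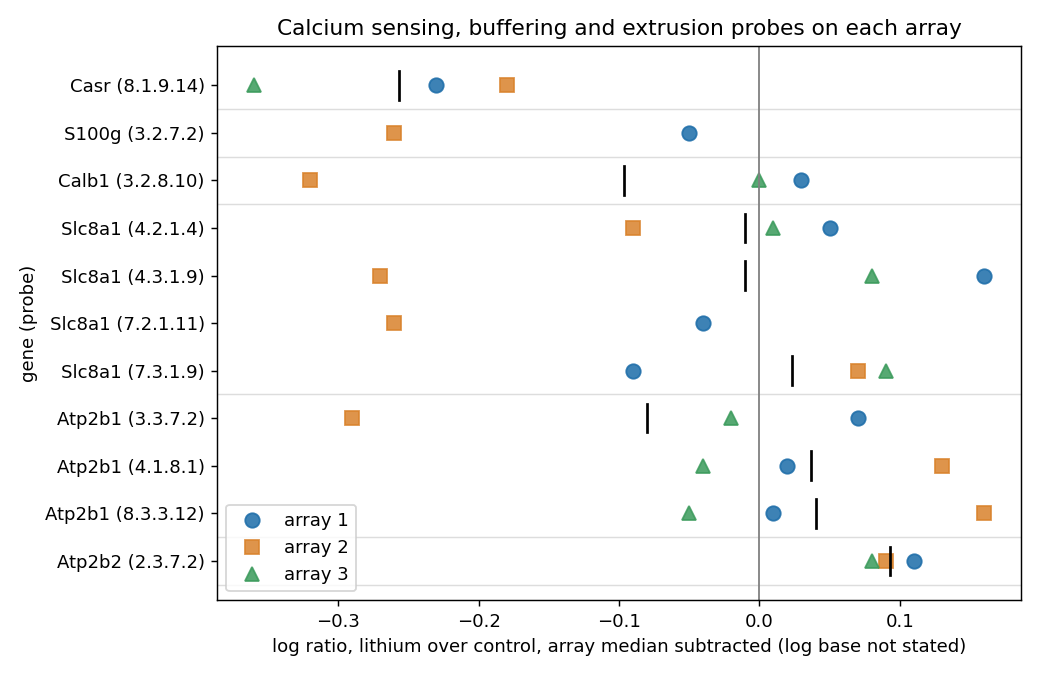
Log ratio (horizontal axis, lithium over control, base not stated) of each of the 11 probes (rows, with gene and probe number) on arrays 1, 2 and 3. Black bars mark the mean of probes with a value on all 3 arrays. Casr lies below 0 on every array, Atp2b2 above 0 on every array, and 5 probes of the other 4 genes lie under −0.2 on array 2 alone.

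The start-site sequences of Casr and Atp2b2 are shown because these genes stand at the ends of that order. Both windows come from RefSeq in the rat build GRCr8 and run 5′ to 3′ on the strand of the gene, from 250 bases before the start used in the RefSeq promoter table to 50 after. For Casr that start lies inside the span of the gene record, so the window is not upstream of the whole gene. The Casr window is chr11:77740364-77740663 on the plus strand, and the Atp2b2 window is chr4:148763604-148763903 on the minus strand.
Casr: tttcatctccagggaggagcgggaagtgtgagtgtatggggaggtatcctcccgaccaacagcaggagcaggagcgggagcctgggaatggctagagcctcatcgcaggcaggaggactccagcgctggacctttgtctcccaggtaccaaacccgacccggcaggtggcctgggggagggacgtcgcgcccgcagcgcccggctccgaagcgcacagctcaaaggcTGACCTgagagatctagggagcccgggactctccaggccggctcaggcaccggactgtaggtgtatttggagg
Atp2b2: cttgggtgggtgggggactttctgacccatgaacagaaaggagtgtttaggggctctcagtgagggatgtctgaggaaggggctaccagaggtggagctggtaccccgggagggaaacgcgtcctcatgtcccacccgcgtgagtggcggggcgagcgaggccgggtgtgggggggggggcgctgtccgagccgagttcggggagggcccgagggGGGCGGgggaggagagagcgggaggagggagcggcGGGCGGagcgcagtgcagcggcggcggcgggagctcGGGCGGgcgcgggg
Capitals mark the motifs that were found. In Casr they are TGACCT, the nuclear receptor half-site AGGTCA read on the other strand, which 16.2% of all 33469 such windows hold on either strand. In Atp2b2 they are 3 copies of the GC box GGGCGG, of which 33.1% of windows hold at least 1 on either strand. The half-site of the cAMP response element, TGACG, the TATA box TATAAA and the CCAAT box CCAAT were searched on both strands too, occur in 21.2%, 14.2% and 37.5% of windows, and were found in neither. No marked motif overlapped another. The GC content was 64.7% for Casr and 72.3% for Atp2b2, against a median of 51.7%. Windows were found for 4 of the 6 genes, and a match is a description of the letters, not of a bound site.

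Casr, the calcium-sensing receptor, had ratios of −0.23, −0.18 and −0.36 on arrays 1, 2 and 3. All 3 lay below 0, with array 3 the lowest. The mean was −0.26 ± 0.09 (SD, n = 3), a lithium-to-control ratio of 0.554 in base 10 or 0.837 in base 2. Were the direction of the table the other way, these would be 1.81 and 1.19, and its rank would count from the highest. Its mean ranked 34 from the lowest of 3819 features, and 28 features, Casr included, read −0.18 or lower on all 3 arrays. Of the 4935, 5023 and 3851 features with a value on arrays 1, 2 and 3, 5.47%, 17.4% and 0.260% read lower than Casr. These shares are not over like sets. Those of arrays 1 and 2 include features empty on array 3, whose probes read low as a class. Among the 3819 features with a value on all 3 arrays, 2.17% read under −0.2 on array 1, where Casr read −0.23. With any 1 array left out the mean stayed between −0.295 and −0.205. Casr was measured by a single probe, so no second probe could be set beside it.

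Casr is also a gene of the thick limb, and Umod, the uromodulin of that segment, read −0.10, −0.04 and −0.39. For both genes array 3 was the lowest, as it was for Kcnj1, Egf and Ptger3, the other markers of these segments apart from Slc12a3. Kcnj1, the potassium channel of thick limb and collecting duct, read 0.32, 0.22 and 0.07, all above 0. Slc12a3, the sodium-chloride cotransporter of the distal convoluted tubule, read −0.03, 0.05 and 0.09. Slc12a1, the sodium-potassium-chloride cotransporter of the thick limb, was not measured here. Of the 10 markers listed for these segments 5 were measured, with means of −0.18 to 0.20. Of these, 3 had a mean above 0 and 2 below, against 55.7% and 42.7% of all features. As the arrays carry no levels, these ratios do not show whether the inner medulla samples held any cells of these segments. The part of these markers in the Casr ratio was not tested.

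Calb1, the larger calbindin, read 0.03, −0.32 and 0.00 on arrays 1, 2 and 3. Only array 2 lay away from 0, and the mean of −0.10 ± 0.19 (SD, n = 3) was 0.015 without that array. On array 2, 8.18% of features read lower, whereas Calb1 stood near the middle of the other arrays with 62.1% and 47.6% of features below it. Each share is over the features with a value on that array, sets that differ as given for Casr.

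S100g, the small calbindin known best from the intestine, read −0.05 on array 1 and −0.26 on array 2 and had no value on array 3. Both values were below 0, and the lower one was again on array 2. The mean of the 2 was −0.16 ± 0.15 (SD, n = 2). S100g was left out of the fit, which takes features with a value on all 3 arrays. Probes empty on array 3 read low as a class, with a median of −0.08 on array 1 and −0.18 on array 2, against 0.01 and 0.04 for probes with a value there. S100g thus lay above the median of the empty probes on array 1 and below it on array 2. The part of this in its ratio was not tested.

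Atp2b2, a plasma membrane calcium pump known mainly from neurons and hair cells, read 0.11, 0.09 and 0.08. All values were above 0 and close together, with a mean of 0.09 ± 0.02 (SD, n = 3). In base 10 this is a ratio of 1.24, in base 2 one of 1.07, or 0.807 and 0.937 with the direction turned. Small positive ratios of this kind were common: 210 features, Atp2b2 included, read 0.08 or more on every array, and its mean ranked 444 from the highest. On arrays 1, 2 and 3, 89.6%, 74.8% and 76.0% of the features with a value on that array lay below it. These sets differ as given for Casr. With other ways of centring the arrays its mean was 0.06 to 0.08, a shift larger than its SD.

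Atp2b1, the widely expressed plasma membrane calcium pump, had 3 probes, and their average was 0.03, 0.00 and −0.04 on arrays 1, 2 and 3. The mean of 0.00 ± 0.04 (SD, n = 3) hid probes that differed. Probe 3.3.7.2 read 0.07, −0.29 and −0.02, while probe 8.3.3.12, annotated to the same sequence record, read 0.01, 0.16 and −0.05. Probe 4.1.8.1, annotated to another record of the gene, read 0.02, 0.13 and −0.04, close to probe 8.3.3.12 on every array. The disagreement was thus on array 2, where 2 probes lay above 0 and 1 far below.

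Slc8a1, the sodium-calcium exchanger of heart and distal nephron, had 4 probes with an average of 0.02, −0.14 and 0.06. Array 2 was the only one below 0, and the mean of −0.02 ± 0.10 (SD, n = 3) was 0.04 without it. The pair of probes annotated to 1 record went different ways. Probe 4.3.1.9 read 0.16, −0.27 and 0.08, whereas probe 7.3.1.9 read −0.09, 0.07 and 0.09. Probe 4.2.1.4 read 0.05, −0.09 and 0.01. Probe 7.2.1.11 read −0.04 and −0.26 and was empty on array 3, so the average there comes from 3 probes. Using only those 3, an alternative added after the values were seen, the mean was 0.00.

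**Figure D2:**
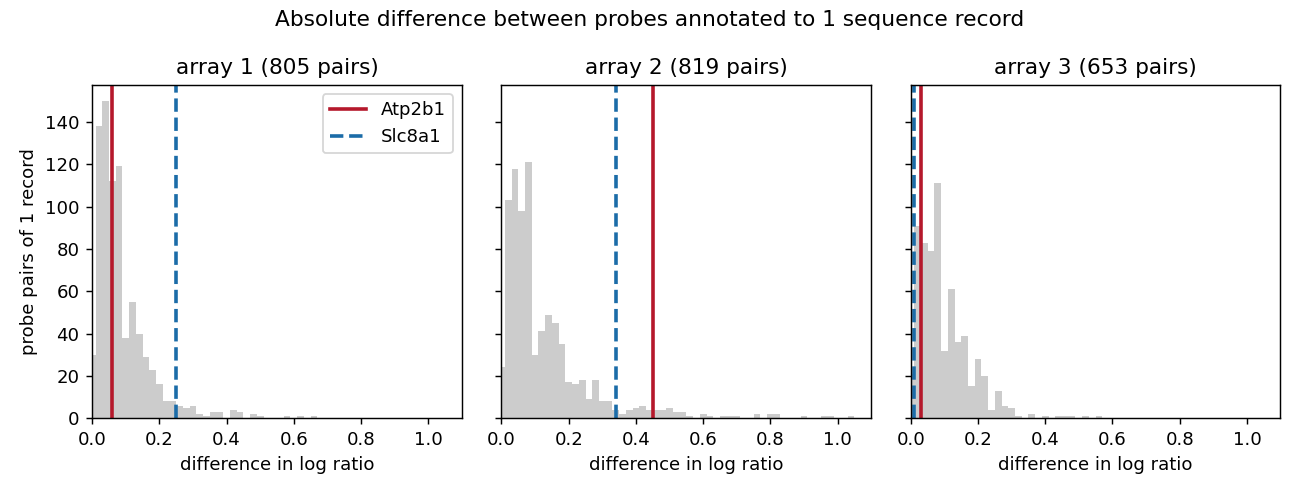
Number of probe pairs (vertical axis) by the absolute difference in log ratio between 2 probes annotated to 1 sequence record (horizontal axis, base not stated), for each array. Lines mark the pair of Atp2b1 (solid) and the pair of Slc8a1 (dashed), which differ by 0.45 and 0.34 on array 2 and by 0.03 and 0.01 on array 3.

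These differences were set beside those of all probe pairs sharing a record. Over all such pairs the median difference was 0.06 on array 1 (805 pairs), 0.08 on array 2 (819 pairs) and 0.08 on array 3 (653 pairs). The Atp2b1 pair differed by 0.06, 0.45 and 0.03, and 53.5%, 4.40% and 82.8% of pairs were at least as far apart on arrays 1, 2 and 3. For the Slc8a1 pair the differences were 0.25, 0.34 and 0.01, with 4.84%, 7.20% and 96.8% of pairs at least as far apart. Few pairs thus differed as much as Atp2b1 on array 2 and Slc8a1 on arrays 1 and 2, and both pairs agreed to within 0.03 on array 3.

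Low values on array 2 were seen for both buffers, 2 of the 4 exchanger probes and 1 pump probe. Of the 11 probes 5 read under −0.2 on array 2, against 1 on array 1 and 1 on array 3, both times Casr. The 5 were those of Calb1 and S100g, 2 of Slc8a1 and 1 of Atp2b1. Over all probes, 16.2% read under −0.2 on array 2, against 7.27% on array 1 and 3.94% on array 3. On array 2 the share was 45.9% for probes empty on array 3 and 6.28% for probes with a value there. The S100g probe and Slc8a1 probe 7.2.1.11 were empty on array 3. The arrays correlated across shared features with Pearson's r of 0.46 for arrays 1 and 2, 0.48 for arrays 1 and 3 and 0.16 for arrays 2 and 3, features not being independent replicates. The part of array 2 in these low ratios, beyond the values without it given above, was not tested.

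**Figure D3:**
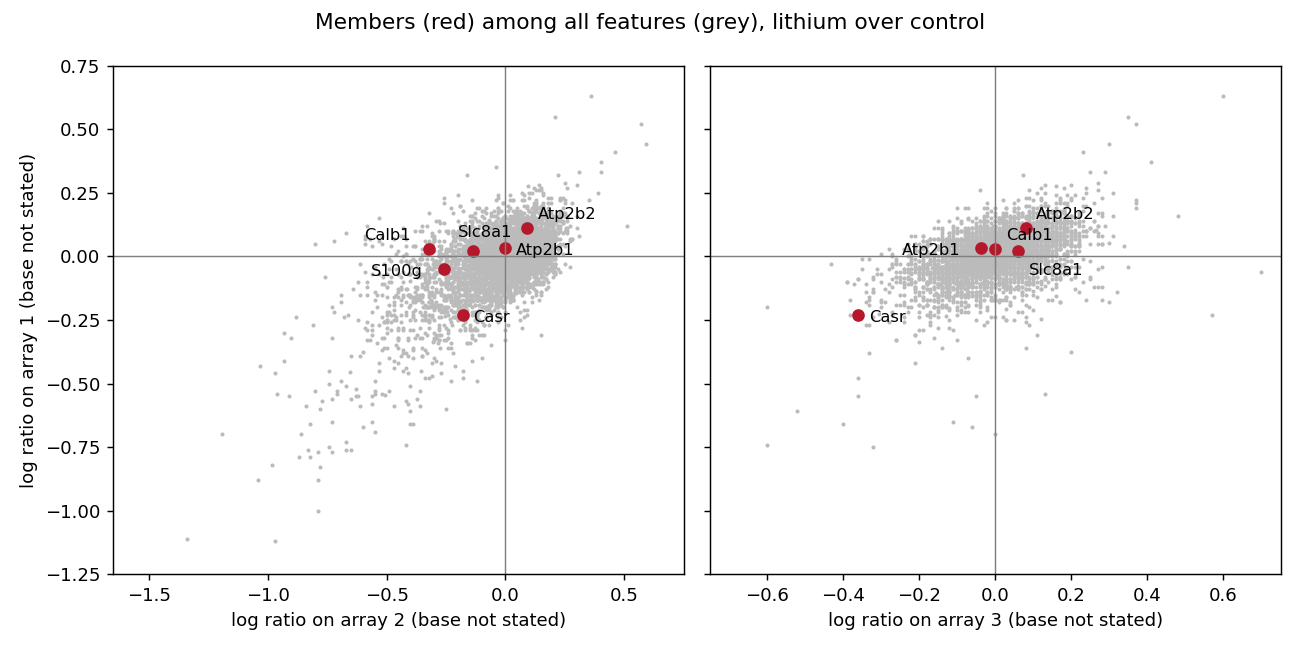
Log ratios on array 1 (vertical axis) against array 2 (left) and array 3 (right), base not stated, with all features in grey and the 6 genes in red, S100g being absent at right. Casr sits low on all 3 arrays (−0.23, −0.18 and −0.36), while Calb1, S100g and Slc8a1 sit to the left on array 2 at −0.32, −0.26 and −0.14.

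Likeness over the 3 arrays was measured as the Euclidean distance between centred ratios. Lgals4, a galectin of epithelia, came closest to Casr with −0.19, −0.18 and −0.33 (distance 0.05), followed by Fabp4, a fatty acid-binding protein, with −0.18, −0.165 and −0.34 (distance 0.0559). Casr had 7 named genes within a distance of 0.1. Calb1 had 29, and the nearest were Pnliprp1, a pancreatic lipase-related gene, and Zranb2, of RNA splicing, at 0.0245 and 0.0374. Around Slc8a1 there were 180, led by the somatostatin receptor gene Sstr3 and the protease gene Adamts1, around Atp2b2 470, led by the cyclophilin gene Ppia and the F-box gene Fbxl20, and around Atp2b1 642, led by Lyst and Zfp180. The patterns of the pumps and the exchanger thus had more genes close to them than those of Casr, low on every array, and Calb1, low on array 2 alone. Atp2b1 and Slc8a1 entered as averages of 3 and 4 probes, the others as 1 probe each.

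The 6 lists of other calcium genes were read from the same fit, and 0 of their 92 genes with a value on all 3 arrays passed a limma adjusted p of 0.05, against 0.445% of all features. The lists named 160 genes, of which 118 were measured on at least 2 arrays. For the counts by sign below, 55.7% of all features had a mean above 0 and 42.7% a mean below. At an unadjusted p under that threshold 15 genes were found, 6 higher and 9 lower, which is 16.3% and close to the 17.2% of all features. Once each array had been scaled to equal spread, 3 genes passed: Camk2a and S100a4 lower and Stc1 higher. That setting called 98 features in all, or 2.57%. With array weights 19 passed, and 1055 features in all, or 27.6%.

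**Figure D4:**
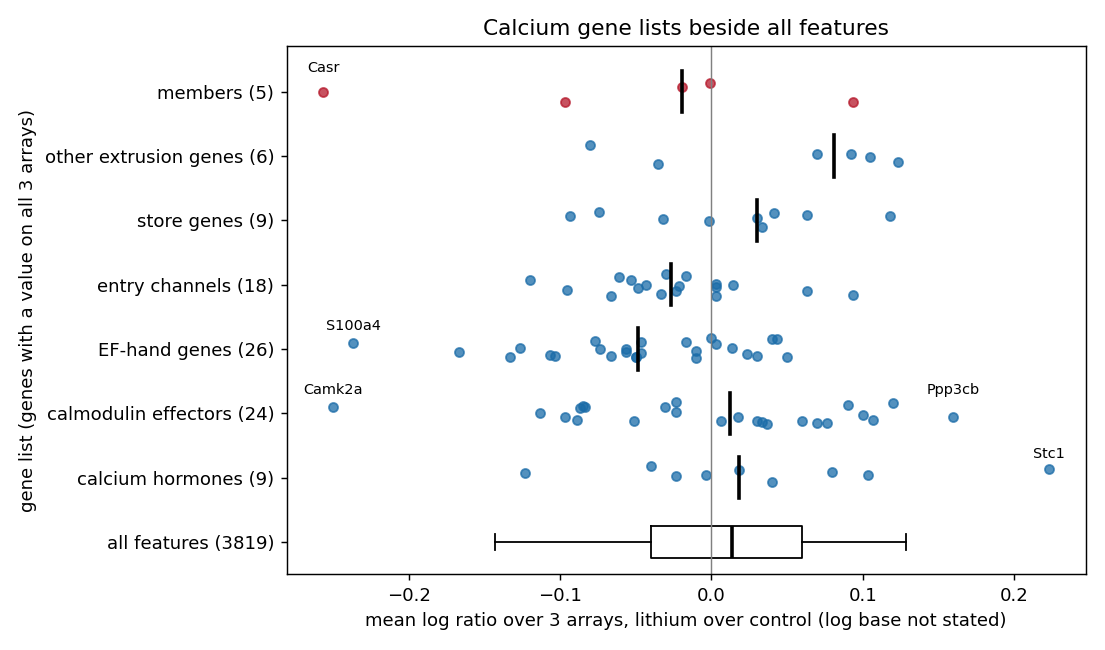
Mean log ratio over 3 arrays (horizontal axis, lithium over control, base not stated) for the 5 genes described above (red) and for the 6 other calcium lists (blue, 1 point a gene), with list medians as black bars. The box below gives the quartiles and the 5th to 95th percentiles of all 3819 features, and Casr, S100a4, Camk2a, Ppp3cb and Stc1 are named.

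Relatives of the pumps and exchangers had a median of 0.08 over 6 genes, against 0.01 for all features, with 4 above 0 and 2 below. The Golgi gene Atp2c1, a calcium and manganese pump, stood at 0.12 ± 0.11 (SD, n = 3, limma adjusted p = 0.270). Atp2b3, a further plasma membrane pump, read 0.06, 0.14 and 0.08 (limma adjusted p = 0.300), values near those of Atp2b2. The potassium-dependent exchangers Slc24a2 and Slc24a3 had means of 0.105 and −0.08. Slc8a3, an exchanger close to Slc8a1 and named here after its values were seen, read −0.50 and −0.74 on arrays 1 and 2. It was empty on array 3, and probes empty there read low as a class, as given for S100g.

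Genes of the calcium store of the endoplasmic reticulum had a median of 0.03, with 5 means above 0 and 4 below, and the median was −0.005 without array 1. Itpr1, a release channel opened by inositol trisphosphate, read 0.12, 0.15 and 0.085 (limma adjusted p = 0.205). Its relative Itpr3 stood at −0.09 ± 0.16 (SD, n = 3), Ryr2, the ryanodine receptor of heart, at −0.07 ± 0.04, and Pln, phospholamban, which restrains the store's pump, at 0.06 ± 0.02.

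Channels that let calcium in had a median of −0.03, 12 of their means lying below 0 and 6 above, and 16 lay below with the arrays centred on shared features. Cacna1c, the pore of the cardiac-type voltage-gated channel, read −0.06, −0.11 and −0.19 (limma adjusted p = 0.230). Cacna1a, the pore of the neuronal P/Q type, had a mean of −0.10 ± 0.03 (limma adjusted p = 0.276). The cation channels Trpc6 and Trpc1 had means of 0.09 and −0.07. Trpv5, the apical calcium channel of the distal tubule, was named after its values were seen. It read −0.26 and −0.58 on arrays 1 and 2 and was empty on array 3. Of probes empty there, 23.8% read under −0.2 on array 1 and 45.9% on array 2. Its relative Trpv6, with a value on every array, read 0.15, −0.13 and −0.01.

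Other EF-hand proteins, the family of the calbindins, had 18 means below 0, 7 above and 1 at 0, with a median of −0.05 against 0.01 for all features. By array the median was −0.04, 0.005 and −0.10, against 0.01, 0.04 and 0.00 for all features with a value on all 3 arrays. On array 2 it was thus not below 0, yet it was below the median of all features on every array. The median of the means was −0.075 to −0.0275 under the other centrings, with scaling and without each array. At an unadjusted p under 0.05 there were 5 of the 26 genes, near the 17.2% of all features. On all 3 arrays 11 of the 26 genes lay below 0, against 14.6% of all features. S100a4, a small calcium-binding protein of motile cells, read −0.33, −0.28 and −0.10 (limma adjusted p = 0.126). Calm3, a calmodulin gene, read −0.01, −0.16 and −0.33 (limma adjusted p = 0.239). S100a6 stood at −0.13 ± 0.11 (limma adjusted p = 0.249) and Pvalb, the parvalbumin of the distal convoluted tubule, at −0.13 ± 0.08 (limma adjusted p = 0.219).

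Effectors of calmodulin were balanced, with 13 means above 0, 11 below and a median of 0.01 that was −0.02 with block-wise centring and between that and 0 without centring, centred on shared features or without array 3. Camk2a, a calmodulin-dependent kinase subunit known best from brain, read −0.19, −0.31 and −0.25, with a limma mean of −0.25 (95% interval −0.35 to −0.15, adjusted p = 0.0782). Ppp3cb, a catalytic subunit of the phosphatase calcineurin, read 0.17, 0.16 and 0.15 (interval 0.07 to 0.25, limma adjusted p = 0.136). Capn8, a calpain, stood at 0.12 ± 0.05, and the kinase inhibitor gene Camk2n2 at −0.11 ± 0.21 (SD, n = 3).

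Hormone systems of calcium had 5 means above 0 and 4 below, and their median of 0.02 was −0.00167 without centring. Stc1, stanniocalcin, a secreted glycoprotein made in the collecting duct, read 0.22, 0.35 and 0.10 (limma adjusted p = 0.139). Pth1r, the receptor of parathyroid hormone, read −0.14, −0.11 and −0.12 (limma adjusted p = 0.183), and Pth, the hormone of the parathyroid, 0.12, 0.09 and 0.10 (limma adjusted p = 0.241). Vdr, the vitamin D receptor, stood at 0.08 ± 0.11 (SD, n = 3).

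Markers of other cells were read beside these values, though ratios do not show whether those cells were in the tissue. Over all features, 55.7% of means lay above 0 and 42.7% below. Of the 12 collecting duct markers 11 had a mean above 0 and 1 stood at 0 (10 above and 2 below without centring), and 2 passed the limma threshold as higher, Hsd11b2 and Krt19. At an unadjusted p under 0.05 there were 8 of these 12 and 2 of the 5 thick limb and distal tubule markers, against 17.2% of all features. Proximal tubule markers had 7 means above 0 and 2 below, vascular and smooth muscle markers 3 above and 5 below, neuronal markers 2 above and 2 below, and leukocyte markers 4 above and 2 below, with 0 past the limma threshold in these 4 lists. At an unadjusted p under 0.05 they held 3 of 9, 1 of 8, 1 of 4 and 2 of 6 genes. Their part in the ratios of the calcium genes was not tested.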

How the data were processed

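The deposited table holds a log ratio per probe and array, with 2 decimals. Its background correction, normalization, log base and direction are not given in the sources used here, and the deposited medians of −0.02, −0.04 and 0.00 do not show whether the authors centred it. Probes were named from the platform's public annotation, where 5064 had 1 symbol, 9 several and 687 none listed. For 5043 of the probes with 1 symbol the gene ID was found in a GRCr8 gene table, and 0 symbols changed. Each array's median over its probes was subtracted and probes of a gene were averaged. Features with values on all 3 arrays were fitted with limma 3.58.1 in R 4.3.3 (intercept only, eBayes, Benjamini-Hochberg, two-sided), calling those with an adjusted p under 0.05. The fit was tested on simulated data. The genes and lists were chosen with earlier results of these data known. The text names the 6 genes, per list the 4 largest absolute means, list genes past the threshold, the 2 nearest genes to each gene with a value on all 3 arrays, Aqp2 and segment markers. Slc8a3, Trpv5 and Trpv6, and the marker genes Egf, Ptger3, Hsd11b2 and Krt19, were named outside the rule for calcium genes, after their values were seen. Alternatives were other centrings, scaling, single probes, missing-value filters, error models and each array left out. Tables and figures were made in Python 3.11.15 with pandas 2.3.3, matplotlib 3.10.9 and numpy 2.4.6.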

Additional observations from a re-analysis of the deposited data

How the results depend on the processing

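Over 32 values of the 6 genes under alternatives other than leaving out an array, 25 moved by less than the SD over arrays and 7 by more. These 7 were Atp2b1 from single probes (−0.08, 0.0367 and 0.04, against 0.00), Slc8a1 from probe 7.2.1.11 alone (−0.15, against −0.02) and Atp2b2 without centring (0.0733), centred on shared features (0.0767) and centred by block (0.0633), against 0.0933. Probe 7.2.1.11 is empty on array 3, so its mean is over arrays 1 and 2, where the mean of Slc8a1 from all its probes was −0.0588. The causes of these 7 shifts were not tested. With 1 array left out, the mean of Casr was −0.295 to −0.205, of Calb1 −0.16 to 0.015, of Atp2b1 −0.0183 to 0.0167, of Atp2b2 0.085 to 0.10, of Slc8a1 −0.0588 to 0.04 and of S100g −0.26 to −0.05. Calb1 and Slc8a1 were above 0 without array 2, and Atp2b1 without array 3. Calls among all features numbered 17, and 98 with arrays of equal spread, 11 with single probes, 40 with features on at least 2 arrays and 1055 with array weights. With limma and any 1 array left out the count was 0 each time, with 172, 606 and 445 features at an unadjusted p under 0.05 without array 1, 2 and 3. It was also 0 without variance shared between genes, with 442 at an unadjusted p under 0.05. Calls among the other calcium genes were 0 in the main limma fit. They were 3 with scaled arrays and 19 with array weights, also by limma, and 0 under the other alternatives for which they were counted. No paired analysis was possible because each array is itself a direct comparison and all 3 form 1 group. No spot intensities were used here, so signal over background is unknown and the number of arrays limits the precision.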
